A study of Homo sapiens
Mus musculus with 24 samples.

Results

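The genes described here are 10 secreted inflammatory mediators of the human tumor cell compartment: the neutrophil-attracting chemokines CXCL1, CXCL2, CXCL3 and CXCL8, the interleukin-1 cytokines IL1A and IL1B, the interleukin-6 family cytokines IL6 and LIF, the growth factor CSF2 and the chemokine CCL20. They were taken by symbol from the 18880 human genes of the series, all 10 were found, and all 10 passed the filter on low counts, while 7 had a mean above 30 normalized counts. The libraries came from tumors that grew from MDA-MB-231 cells, an established human triple negative breast cancer line, injected at 14 weeks of age under the skin at the base of the neck of female B6/Rag1KO mice, a strain without mature T and B cells. CTRL mice (n = 4) received a high-fat diet with weekly saline, Chemo mice (n = 5) the same diet with weekly doxorubicin at 2 mg/kg and cyclophosphamide at 100 mg/kg, MC mice (n = 5) the diet with 0.6% moringa seed concentrate, and MC + Chemo mice (n = 6) both. Lean mice (n = 4) received a lean diet and no intervention. A library is named by its group and mouse number, each library is 1 mouse, and all values come from tumors of 1 cell line.

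CXCL1, CXCL2, CXCL3 and CXCL8 are small secreted proteins that bind the receptors CXCR1 and CXCR2 on neutrophils and draw these cells along a gradient. Their genes lie near each other on the same chromosome, and their transcription, like that of IL6, LIF, CSF2 and CCL20, is driven by NF-kB when a cell meets interleukin-1, TNF or damage. The interleukin-1 proteins IL1A and IL1B act through IL1R1 and IL1RAP to switch on NF-kB in the responding cell, IL6 and LIF signal through the shared chain IL6ST to STAT3, CSF2 (GM-CSF) promotes the formation and survival of myeloid cells, and CCL20 attracts cells that carry CCR6. In basal-like breast cancer lines several of these genes are transcribed without an added stimulus.

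Each library gave 7796231 to 17621273 reads on human genes, which were 47.8 to 74.0% of its human and murine reads. A value below is a normalized count, the read count divided by the library's size factor (0.733 to 1.65), and levels are compared between libraries, never between genes. All 10 MDA-MB-231 markers checked were listed, and of the receptors whose absence defines triple negative tumors PGR was not listed, ESR1 averaged 30.5 (2.59 to 88.3) and ERBB2 averaged 448 (192 to 769) normalized counts. Of 9 human leukocyte genes, which a carcinoma line should lack, 4 were listed, with PTPRC at 54.6 to 619, CD68 at up to 180, CD14 at up to 129 and the neutrophil gene FCGR3B at up to 43.7 normalized counts. PTPRC had 7024 human reads and murine Ptprc 35455, in a ratio of 0.105 to 0.314 per library. Pearson's r of their log2 levels was 0.80 (0.50 without the 2 farthest libraries), against 0.09 for CD14 and 0.14 for CD68. Whether murine reads were counted for these human genes was not tested. CTRL 17 and CTRL 44 stood apart from the other 22 libraries. VIM, the intermediate filament of mesenchymal cells, was at 71918 in CTRL 17 and 50209 in CTRL 44 and between 4402 and 24619 elsewhere, and the epithelial keratin KRT18 was at 2125 and 3423 against 8014 to 20453 elsewhere. Each comparison of the 10 genes with CTRL by the main test (edgeR) is therefore given with and without these 2 libraries. This choice was made after their values were seen. BIRC3, SOD2, TNIP1, CEBPB and VIM in MC + Chemo are given in both ways too. The other comparisons of gene lists and of further genes with CTRL, and the results by DESeq2, are given only with these 2 libraries included. Whether those depend on the 2 libraries was not tested. In whole tumors, fewer cells that make a transcript and less of it per cell cannot be told apart.

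CXCL1 was the member with the largest ratio of highest to lowest value in CTRL. There it was at 186 normalized counts in CTRL 17, 617 in CTRL 44, 3283 in CTRL 31 and 3901 in CTRL 70. Chemo gave 2243 in Chemo 30, 2291 in Chemo 67, 3248 in Chemo 34, 3253 in Chemo 33 and 3918 in Chemo 19, and MC gave 1687 in MC 6, 1764 in MC 41, 2697 in MC 59, 3126 in MC 48 and 3276 in MC 42. MC + Chemo ran from 2644 over a median of 4265 to 7883 in MC + Chemo 52, the highest value of the 24. Lean mice gave 875 in Lean 24, 2035 in Lean 21, 2087 in Lean 3 and 2703 in Lean 54. MC + Chemo thus averaged 4647 ± 1854 (SD, n = 6) and CTRL 1997 ± 1868 (SD, n = 4), and 3 of the 6 MC + Chemo tumors lay above the highest CTRL tumor. The groups overlapped, and the 2 lowest values of all 24 were CTRL 17 and CTRL 44.

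CXCL8, the chemokine of this family that has no counterpart in mice, followed the same order. It was at 202 normalized counts in CTRL 17, 277 in CTRL 44, 688 in CTRL 31 and 847 in CTRL 70. The 5 Chemo tumors lay at 415 (Chemo 30), 683 (Chemo 34), 711 (Chemo 19), 962 (Chemo 67) and 1133 (Chemo 33), and the 5 MC tumors at 503 (MC 6), 626 (MC 41), 654 (MC 59), 738 (MC 48) and 1057 (MC 42). MC + Chemo ran from 660 in MC + Chemo 5 over a median of 969 to 1875 in MC + Chemo 52. Only MC + Chemo 5 among the 6 was within the range of CTRL, and the other 5 were above it. Lean tumors held 512 in Lean 21, 545 in Lean 24, 616 in Lean 3 and 825 in Lean 54, all of them inside the range of CTRL.

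CXCL2 and CXCL3 varied less than CXCL1. CXCL3 ran over 132 to 785 normalized counts, lowest in CTRL 44 (132) and CTRL 17 (171) and highest in Chemo 33 (785) and in Chemo 19 (661). CXCL2 ran over 38.8 to 228, and CTRL 17, which was low for the other chemokines of the family, was at 144 and so the highest CTRL tumor, with CTRL 44 the lowest of all libraries at 38.8. The highest CXCL2 values were 228 in MC + Chemo 52 and 192 in MC 42. In MC + Chemo, 5 of 6 tumors were above every CTRL tumor for CXCL3 and 4 of 6 for CXCL2. For CXCL3, 3 of 5 Chemo and 3 of 5 MC tumors were too, and for CXCL2 0 of 5 and 1 of 5. The CXCL3 margin was small in MC + Chemo 25, at 435.1 against 434.9 in CTRL 70. CXCL1, CXCL2 and CXCL3 are closely similar sequences, so short reads shared by their transcripts may have been counted for the wrong member of the trio.

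**Figure D1:**
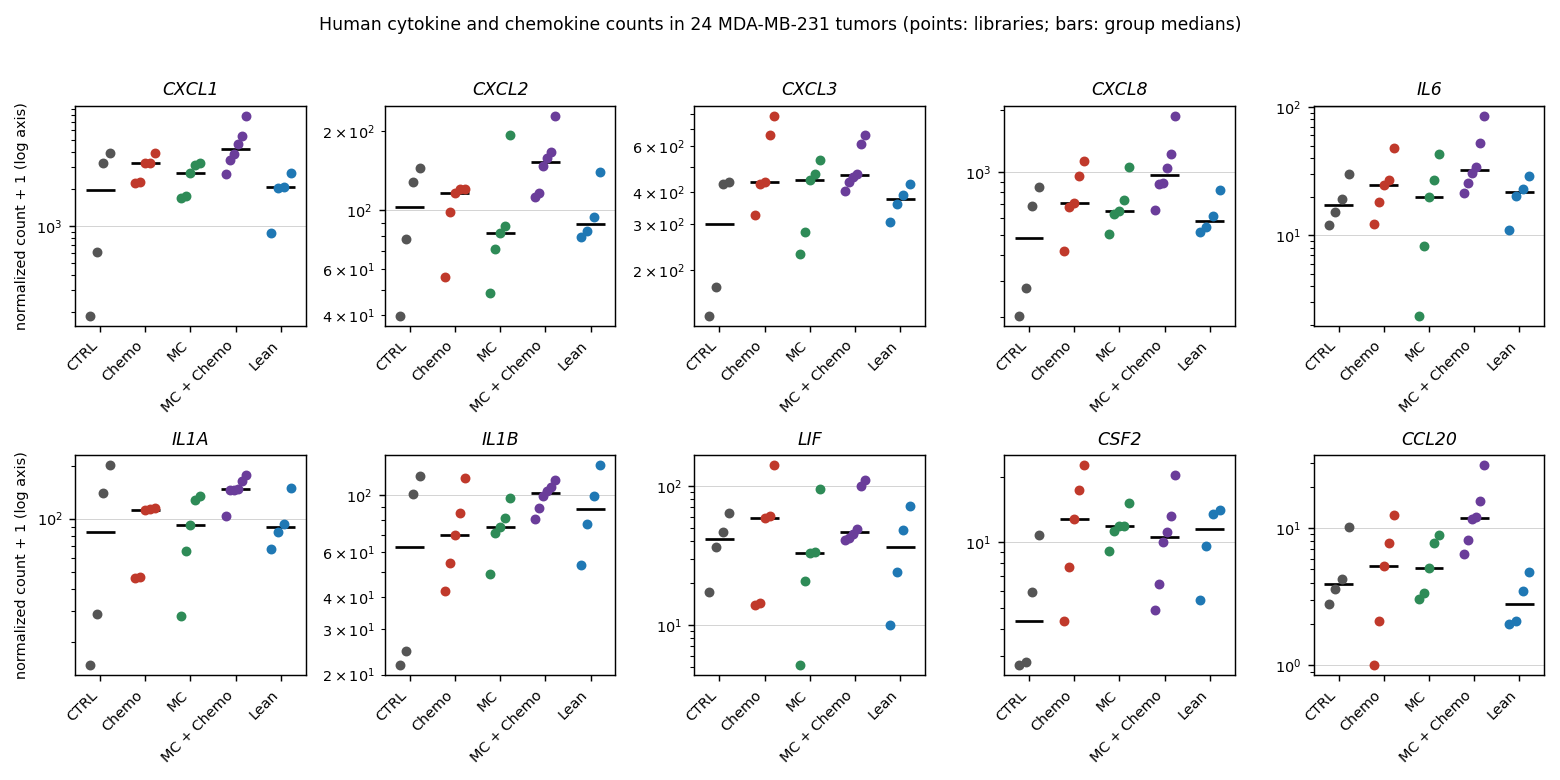
Normalized counts plus 1 of the 10 genes (log axis, each panel with its own range) in the 24 libraries by group. Points are libraries and black bars are group medians. The 2 low CTRL points of CXCL1, CXCL3, CXCL8, IL1A and IL1B are CTRL 17 and CTRL 44, and no group lies wholly above or below CTRL for any gene.

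The interleukin-1 genes split CTRL in the same way. IL1A, which is made as an active precursor and released by damaged cells, was at 13.7 normalized counts in CTRL 17 and 27.6 in CTRL 44 but at 139 in CTRL 31 and 199 in CTRL 70. CTRL thus held the lowest and the highest IL1A value of the 24 libraries, and all 6 MC + Chemo tumors (103 to 175, median 145) fell inside the range of CTRL. In Chemo IL1A was at 45.2 (Chemo 33), 45.9 (Chemo 30), 111 (Chemo 67), 112 (Chemo 34) and 114 (Chemo 19), in MC it ran from 27.1 in MC 6 to 133 in MC 48, and in Lean from 65.8 to 148. IL1B, which needs cleavage by an inflammasome before it acts, was at 20.7 in CTRL 44, 23.7 in CTRL 17, 99.6 in CTRL 31 and 117 in CTRL 70. MC + Chemo lay between 79.2 and 114 (median 101), again inside CTRL, Chemo between 41.4 and 115, MC between 48.2 and 95.9 and Lean between 52.4 and 129. The coefficient of variation of IL1B was 77.0% in CTRL and 12.7% in MC + Chemo, and that of IL1A was 94.2% and 16.7%.

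IL6 and LIF did not share the split of CTRL. IL6 was at 10.9 normalized counts in CTRL 17, 14.1 in CTRL 31, 18.1 in CTRL 44 and 28.8 in CTRL 70, and in MC + Chemo it ran from 20.4 over 31.2 (median) to 84.2 in MC + Chemo 52, with 4 of 6 above all CTRL tumors. LIF was at 16.2 in CTRL 31, 35.5 in CTRL 17, 45.8 in CTRL 44 and 63.1 in CTRL 70, so the order of the CTRL tumors differed from that of the chemokines. LIF was highest in Chemo 67 (139), MC + Chemo 43 (110) and MC + Chemo 52 (99.1) and lowest in MC 59 (4.09). MC 59 was also the lowest IL6 library, at 1.36, which is 1 read, although its CXCL1 (2697) and IL1A (127) were not low. Chemo and MC overlapped CTRL for both genes, with Chemo at 11.2 to 47.2 for IL6 and 12.9 to 139 for LIF and MC at 1.36 to 41.9 and 4.09 to 94.7.

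LIF, alone among the members, ran in proportion to the murine gene of its name. The libraries held 1327 human LIF reads and 933 murine Lif reads in all, and the ratio of human to murine reads stayed between 1.2 and 2.0 (median 1.41) from 3 against 2 reads in MC 59 to 195 against 120 in Chemo 67. On the log2 scale Pearson's r of the normalized counts was 0.96 over 24 libraries (Spearman's rho 0.94, 0.96 within groups, 0.94 without the 2 farthest libraries). Of the 11277 gene symbols found in both tables, 99.7% had a lower r, and the median was 0.39. The other members with a murine counterpart in the table gave r of 0.28 for CXCL1, 0.09 for CXCL2, 0.13 for IL6, 0.32 for IL1A and 0.46 for IL1B. Without the 2 farthest libraries these became -0.07 for CXCL1, -0.04 for CXCL2, -0.01 for IL6, 0.39 for IL1A and 0.75 for IL1B. For CXCL1 the ratio of human to murine reads ran from 1.76 to 160. How reads that match both genomes were assigned is not given in the sources used here, and whether LIF and Lif share reads was not tested, so LIF is reported as uncertain. IL1B had 2069 human against 20517 murine reads (median ratio 0.097), and CXCL2 had 2948 against 2638. CXCL1, IL1A and IL6 had 76952, 2684 and 700 human against 1786, 195 and 129 murine reads. Whether reads of Il1b or Cxcl2 were counted for IL1B or CXCL2 was not tested either. Murine Cxcl3, Csf2 and Ccl20 are not among the murine genes given.

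**Figure D2:**
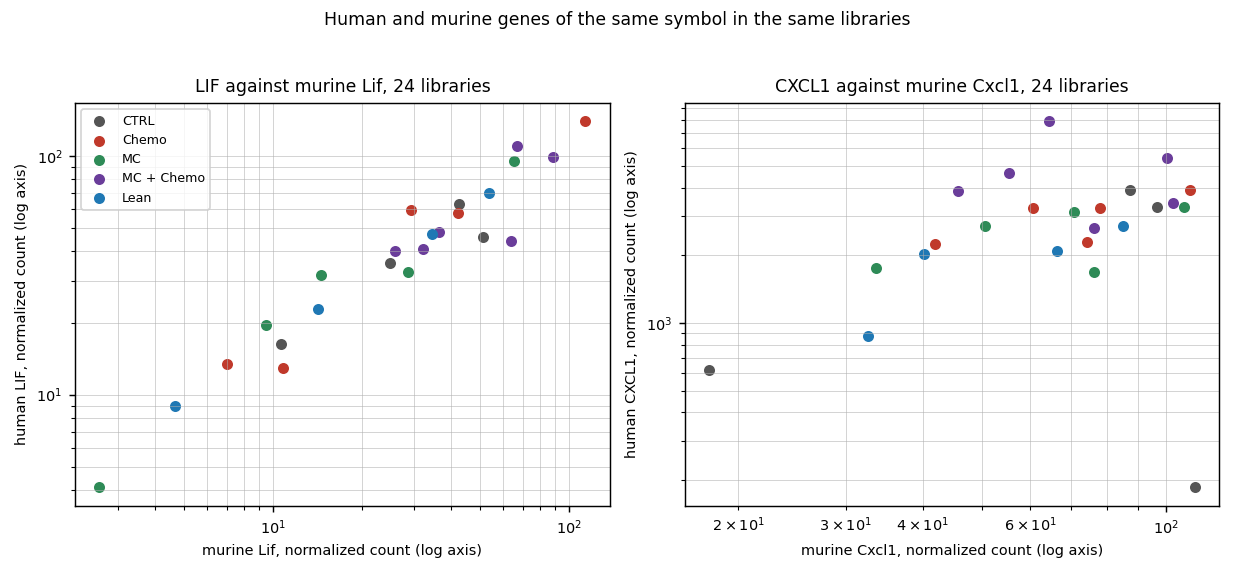
Human against murine normalized counts (both axes log) of LIF and Lif on the left and of CXCL1 and Cxcl1 on the right. Points are the 24 libraries, colored by group. LIF lies along a line (r = 0.96), whereas CXCL1 does not (r = 0.28), with CTRL 17 at the lower right.

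CSF2 and CCL20 were near the limit of counting. CSF2 was at 1.73 normalized counts in CTRL 44, 1.82 in CTRL 17, 4.91 in CTRL 70 and 9.74 in CTRL 31, of which the 2 lowest were 2 reads each. The other groups were at 3.36 to 21.5 in Chemo, 8.12 to 14.1 in MC, 3.91 to 19.4 in MC + Chemo (median 9.58) and 4.46 to 13.1 in Lean, so CTRL had the lowest median of the 5 groups. CCL20 was at 1.82 in CTRL 17, 2.59 in CTRL 44, 3.25 in CTRL 31 and 9.12 in CTRL 70 and at 5.45 to 27.6 (median 10.8) in MC + Chemo. In MC + Chemo 4 of the 6 tumors were above the highest CTRL tumor, with 27.6 (41 reads) in MC + Chemo 52. Chemo 30 had 0 CCL20 reads, and 3 reads there would be 3.36 normalized counts. Lean tumors had the lowest CCL20 median (1.79, range 1.01 to 3.82), with 1 to 4 reads each.

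Against CTRL, all 10 genes had a higher fitted level in MC + Chemo, and none passed the test. The log2 fold changes were 1.20 (SE 0.53) for CXCL1, 0.65 (0.36) for CXCL2, 0.78 (0.33) for CXCL3 and 1.11 (0.37) for CXCL8. They were 0.60 (SE 0.53) for IL1A, 0.57 (0.39) for IL1B, 1.14 (0.57) for IL6, 0.63 (0.64) for LIF, 1.15 (0.54) for CSF2 and 1.54 (0.66) for CCL20, or 1.48-fold for IL1B to 2.91-fold for CCL20. The smallest adjusted p was 0.0917, for CXCL8 at 2.15-fold, and the others ran from 0.165 to 0.588 (edgeR quasi-likelihood F test, Benjamini-Hochberg over 16434 genes). A gene was called when its adjusted p was below 0.05, its mean above 30 normalized counts and its change above 1.5-fold, which IL6, CSF2 and CCL20 could not reach for want of counts. By these 3 criteria 0 of 10 members were called beside 1.6% of all genes tested. At an unadjusted p below 0.05, 5 members were higher (CXCL1, CXCL3, CXCL8, CSF2 and CCL20), where 9.19% of all genes were. With DESeq2, CXCL8 was called (log2 fold change 1.12, adjusted p = 0.0370) beside 4.46% of genes tested, whereas the adjusted p of CXCL8 ran from 0.0318 to 0.584 over the alternatives run.

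The median log2 fold change of the members was 0.94, that of all genes -0.02, and 47.5% of all genes were higher. Without CTRL 17 and CTRL 44 the median of the members was 0.49 and 8 of 10 were higher. CXCL1 then had a log2 fold change of 0.36 (SE 0.33), CXCL3 0.22 (0.31) and CXCL8 0.50 (0.35), while IL1A was at -0.23 (0.41) and IL1B at -0.16 (0.29), and the smallest adjusted p of a member was 0.583 in the same edgeR test. IL6 at 0.89 (SE 0.71), LIF at 0.64 (0.83), CXCL2 at 0.58 (0.40) and CCL20 at 1.00 (0.79) moved less. The number of all genes called by edgeR went from 263 to 0 in that fit. There 0 of 10 members had an unadjusted p below 0.05, beside 2005 of 16977 genes. CTRL 31 and CTRL 70, the pair that remained, are a small base for this comparison.

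**Figure D3:**
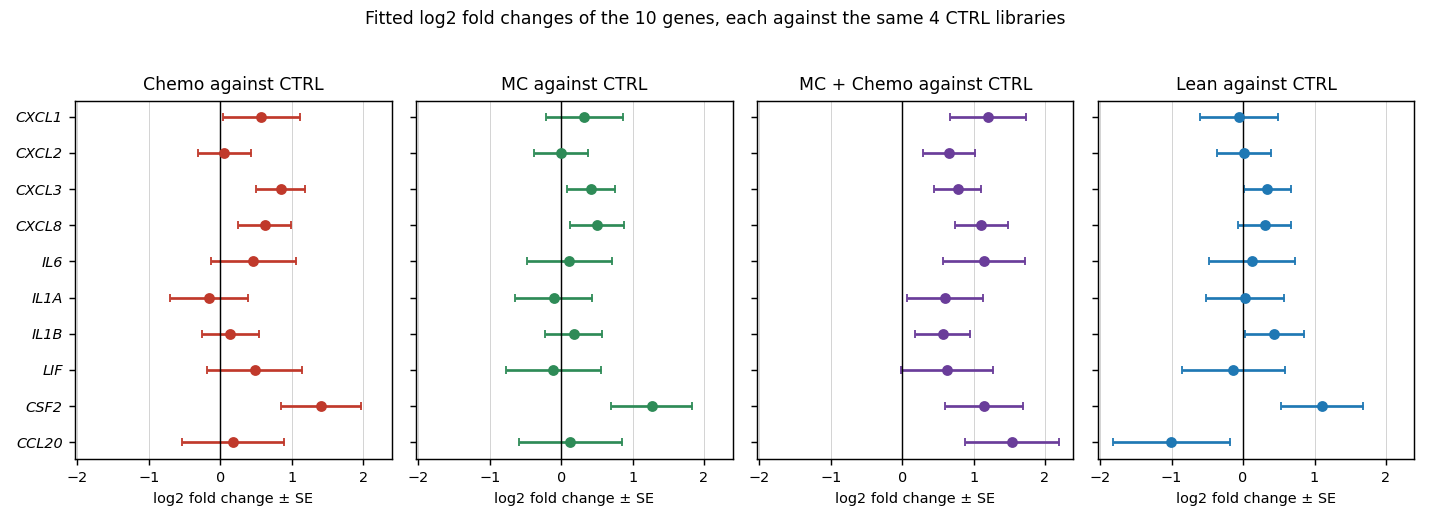
Log2 fold change (x axis) of each gene against CTRL in Chemo, MC, MC + Chemo and Lean, fitted by edgeR. Points are estimates and bars 1 SE, and all 4 panels share the same 4 CTRL libraries. All 10 points lie above 0 in MC + Chemo, and none of the 40 passed an adjusted p of 0.05.

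In Chemo, CSF2 and CXCL3 were the members with the largest differences from CTRL. CSF2 was higher by a log2 fold change of 1.41 (SE 0.56, adjusted p = 0.196, edgeR) and CXCL3 by 0.84 (SE 0.34, adjusted p = 0.200), and 9 of 10 members had a higher estimate. The remaining members ran from -0.16 for IL1A to 0.62 for CXCL8. None of the 10 was called, beside 0% of all genes (2989 had an unadjusted p below 0.05, and DESeq2 called 0 members and 481 genes), and 2 were higher at an unadjusted p below 0.05 beside 7.84% of all genes. Without CTRL 17 and CTRL 44 the estimates were 0.74 for CSF2, 0.28 for CXCL3, 0.01 for CXCL8, -0.28 for CXCL1 and -0.99 for IL1A, the adjusted p of every member was 1.00 in the same edgeR test, and 5 of 10 were higher. Of the members only IL1A, which was lower, then had an unadjusted p below 0.05, as did 562 of 16977 genes.

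In MC, CSF2 was again the member farthest from CTRL. It was higher by a log2 fold change of 1.27 (SE 0.56, adjusted p = 0.451, edgeR), and the other 9 lay between -0.11 and 0.50. The 3 criteria called 0 of 10 members beside 0% of all genes (1762 genes had an unadjusted p below 0.05, and DESeq2 called 12 genes and 0 members). CSF2 was the 1 member higher at an unadjusted p below 0.05, beside 4.79% of all genes. Without CTRL 17 and CTRL 44, 1 of 10 members was higher, CSF2 at 0.60, and IL1A was at -0.94. Of the members only IL1A then had an unadjusted p below 0.05, as did 853 of 16977 genes, with an adjusted p = 0.930 by edgeR.

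Adding MC to chemotherapy was read from MC + Chemo against Chemo, in which CTRL enters only the estimate of the spread shared by the 20 libraries. CCL20 was higher by a log2 fold change of 1.36 (SE 0.60, adjusted p = 0.446, edgeR), with values of 5.45 to 27.6 against 0 to 11.4 in Chemo. Of the other members, IL1A was at 0.76 (SE 0.49), IL6 at 0.68 (0.52), CXCL1 at 0.63 (0.49), CXCL2 at 0.60 (0.34) and CXCL8 at 0.49 (0.34), and CSF2 (-0.26) and CXCL3 (-0.07) were lower. The members called were 0 of 10 beside 0% of all genes (1713 at an unadjusted p below 0.05, and 9 genes and 0 members called with DESeq2), and CCL20 alone was higher at an unadjusted p below 0.05 beside 3.29% of all genes. The CCL20 estimate was 0.95 without MC + Chemo 52 and 2.03 without Chemo 67. Leaving out CTRL 17 and CTRL 44, the estimates of CXCL1 (0.64), IL1A (0.76) and CCL20 (1.36) were nearly the same, but the SE of CXCL1 was 0.24 in place of 0.49. These 3 members then had an unadjusted p below 0.05, as did 2485 of 16977 genes. The smallest adjusted p of a member was 0.256 by edgeR.

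Chemotherapy averaged over the diets gave 10 of 10 higher estimates, from 0.27 for IL1B to 0.80 for CCL20. Members called were 0 beside 0% of all genes (2889 at an unadjusted p below 0.05, and 278 genes and 0 members called with DESeq2), and CXCL3 (0.60, SE 0.23, adjusted p = 0.179, edgeR) and CXCL8 (0.61, SE 0.25, adjusted p = 0.219) were higher at an unadjusted p below 0.05, where 7.65% of all genes were. Of the 10, 8 were higher without CTRL 17 and CTRL 44, IL1A was at -0.14 and IL1B at -0.10, and CXCL3 (0.32, SE 0.20) and CXCL8 (0.31, SE 0.22) had adjusted p = 0.669 and 0.695 by edgeR. MC averaged over chemotherapy gave estimates from 0.02 to 0.74 (median 0.36), or from -0.10 to 0.47 (median 0.11, 7 of 10 higher) without CTRL 17 and CTRL 44, with 0 members called beside 0% of all genes (1870 genes at an unadjusted p below 0.05, 40 called with DESeq2). In the interaction of MC and chemotherapy 0 members were called beside 0% of all genes (1600 at an unadjusted p below 0.05, 1 called with DESeq2). There CSF2 was at -1.52 (SE 0.73, adjusted p = 0.511, edgeR) and lower at an unadjusted p below 0.05 beside 3.93% of all genes. Without CTRL 17 and CTRL 44 the interaction estimates were 1.70 (SE 0.52) for IL1A, 1.16 (0.41) for CXCL1, 0.98 (0.37) for IL1B and -0.85 (0.76) for CSF2, each with an adjusted p = 0.994 by edgeR. In that fit 9 of 10 members were higher and 0 were called. IL1A, CXCL1 and IL1B had an unadjusted p below 0.05, as did 580 of 16977 genes.

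In Lean against CTRL the estimates farthest from 0 were those of CSF2 and CCL20. CSF2 was at a log2 fold change of 1.11 (SE 0.58, adjusted p = 0.715, edgeR on 24 libraries) and CCL20 at -1.01 (SE 0.82, adjusted p = 0.820), and the other 8 lay between -0.14 and 0.44. The members called were 0 beside 0% of 16588 genes (1175 at an unadjusted p below 0.05, 1 called with DESeq2), and 0 members were higher at an unadjusted p below 0.05 beside 2.77% of all genes. In Lean 1 of 10 members was higher without CTRL 17 and CTRL 44, CSF2 at 0.45, while CCL20 was at -1.55 (SE 0.91), CXCL1 at -0.90 (0.37) and IL1A at -0.80 (0.43). CXCL1 alone of the members then had an unadjusted p below 0.05, beside 818 of 17198 genes, with an adjusted p = 0.994 by edgeR. A test for any difference among the 5 groups called 0 members beside 0% of genes by edgeR, and DESeq2 called 505 genes. There CCL20 had an adjusted p = 0.191 and CXCL8 an adjusted p = 0.293 by edgeR. These 2 of 10 members had an unadjusted p below 0.05, as did 15.5% of all genes.

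**Figure D4:**
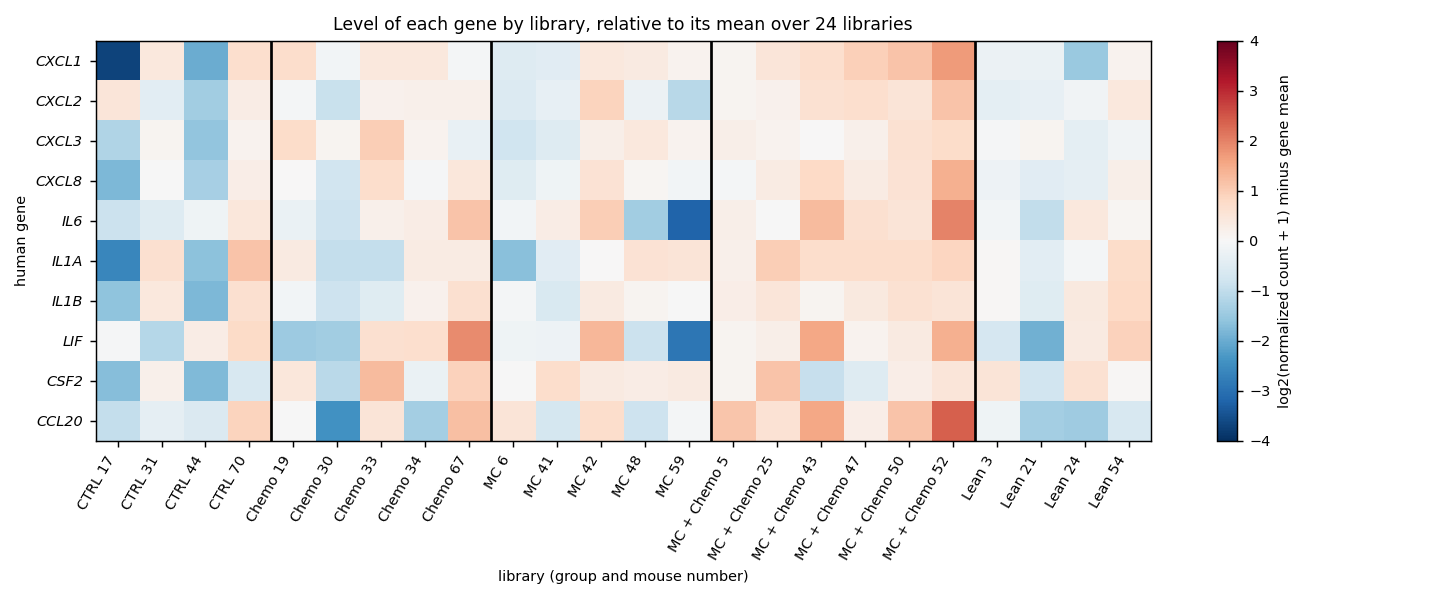
Log2 of the normalized count plus 1 of each gene in each library, minus the mean of the gene over the 24 libraries (red above and blue below that mean). Columns are libraries in groups separated by black lines. CTRL 17 and CTRL 44 are blue in most rows, MC + Chemo 52 is red in every row, and MC 59 is blue in IL6 and LIF.

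Single libraries carried much of the pattern. MC + Chemo 52 was the highest library for CXCL1, CXCL2, CXCL8, IL6 and CCL20 and was among the top 3 for 8 of the 10 genes. CTRL 17 was the lowest for CXCL1, CXCL8 and IL1A, and CTRL 44 for CXCL2, CXCL3, IL1B and CSF2. MC + Chemo 50 and MC + Chemo 52 were above the median of the 24 libraries for all 10 genes. The mean of the gene-centered log2 levels of the 7 members above 30 normalized counts was -1.50 in CTRL 17 and -1.34 in CTRL 44, but 0.00 in CTRL 31 and 0.57 in CTRL 70. In MC + Chemo it ran from 0.14 to 1.11, in Chemo from -0.69 to 0.45, in MC from -0.61 to 0.55 and in Lean from -0.54 to 0.44. This mean had Pearson's r of 0.13 with the human share of reads and 0.37 with log2 of the human reads over the 24 libraries (Spearman's rho 0.16 and 0.42).

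The co-variation of the 10 genes over the 24 libraries is given here as a description of libraries that share groups and size factors. CXCL1 and CXCL8 had Pearson's r of 0.88 (Spearman's rho 0.83, 0.81 within groups, 0.75 without the 2 farthest libraries), and IL1A and IL1B 0.85 (0.80, 0.83 and 0.89). CXCL1 and IL1A were at 0.81, which became 0.58 without the 2 farthest libraries, and CXCL1 with IL1B went from 0.73 to 0.34. CXCL3 with IL1A went from 0.64 to 0.32 and CXCL3 with IL1B from 0.58 to 0.01. IL6 and LIF had r of 0.87 (Spearman's rho 0.84, 0.86 within groups, 0.83 without the 2 farthest). LIF had an r of 0.12 with CXCL1, -0.05 with CXCL3 and 0.14 with IL1A. CXCL2 was at 0.67 with LIF, 0.69 with IL6 and 0.37 with CXCL1. IL6 also had r of 0.84 with murine Lif (Spearman's rho 0.80, 0.76 without the 2 farthest libraries), but 0.13 with murine Il6. Of the 45 pairs of members, 10 had r above 0.7.

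**Figure D5:**
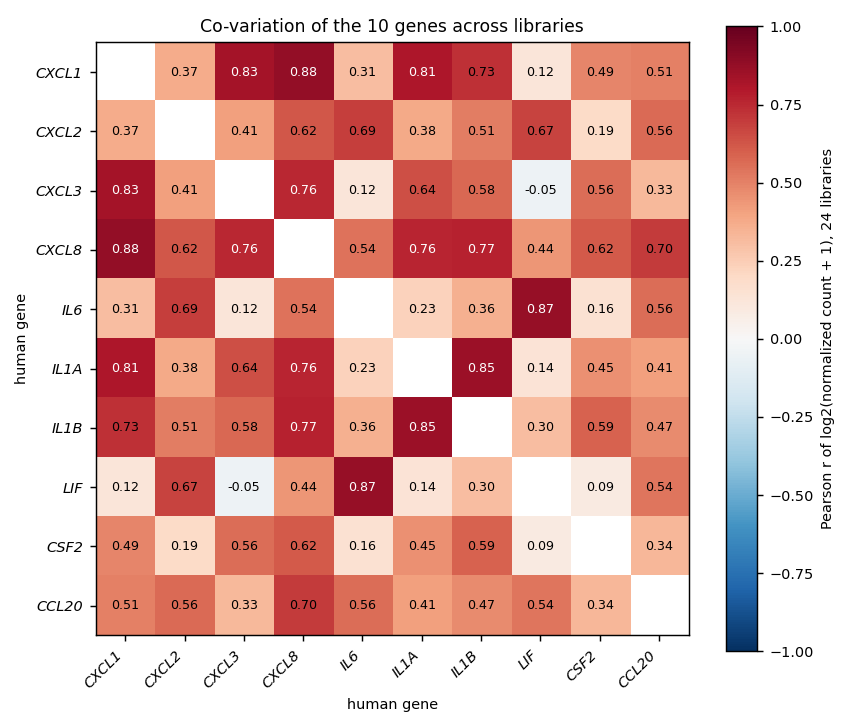
Pearson's r of log2(normalized count + 1) between each pair of the 10 genes over 24 libraries (color scale from -1 to 1). The highest values are those of CXCL1 with CXCL8 (0.88), IL6 with LIF (0.87) and IL1A with IL1B (0.85), and CXCL3 with LIF is the lowest (-0.05).

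The human genes whose levels were most like the mean of the members were CD40, a receptor of the TNF receptor family that signals to NF-kB (r = 0.89), SPINT2, a serine protease inhibitor (0.89), C15orf48 (0.89), CREG1 (0.88) and CSTB, the protease inhibitor cystatin B (0.86), of 12666 genes ranked over 24 libraries. Without the 2 farthest libraries these values were 0.79, 0.81, 0.83, 0.77 and 0.80. Their means in CTRL and MC + Chemo were 471 and 906 normalized counts for CD40 and 4093 and 9830 for C15orf48, with adjusted p = 0.0913 and 0.187 by edgeR.

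Of the receptors that these 10 ligands use, 7 of 11 were listed in the human table. Not listed were CXCR1 and CXCR2, the receptors of the neutrophil chemokines, and CCR6, the receptor of CCL20. Of the CSF2 receptor chains, CSF2RB was not listed and CSF2RA was. None of the 7 passed an adjusted p of 0.05 in a comparison with CTRL by edgeR. By DESeq2 LIFR, the receptor chain of LIF, was lower in MC + Chemo, where 7.16% of all genes passed. LIFR was at 177 to 753 normalized counts in CTRL, with 367 in CTRL 17 and 753 in CTRL 44, and at 147 to 229 in MC + Chemo. IL1R1, the signaling receptor of IL1A and IL1B, was at 19.1 in CTRL 17, 54.4 in CTRL 44, 131 in CTRL 70 and 158 in CTRL 31.

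Among the NF-kB subunits and feedback genes, 3 of 20 passed an adjusted p of 0.05 in MC + Chemo against CTRL, all higher, where 2.09% of all genes passed. BIRC3, which restrains cell death at the TNF receptor, was higher by a log2 fold change of 0.98 (SE 0.25, adjusted p = 0.0436, edgeR), and SOD2, the mitochondrial superoxide dismutase, by 0.86 (SE 0.19, adjusted p = 0.0364). TNIP1, a binding partner of A20, was higher by 0.44 (SE 0.11, adjusted p = 0.0445), below the criterion of 1.5-fold. BIRC3 was at 464, 705, 1448 and 1677 normalized counts in the 4 CTRL tumors and at 1686 to 2530 (median 2081) in MC + Chemo. SOD2 was at 468, 703, 832 and 1122 in CTRL and at 1149 to 1999 (median 1330) in MC + Chemo. The median log2 fold change of the 20 was 0.43, and 18 were higher. In Chemo, MC and Lean none passed by edgeR, but 17 of the 20 were higher than in the same CTRL libraries in each, with medians of 0.31, 0.33 and 0.33. DESeq2 passed 6 of the 20 in MC + Chemo, where 7.16% of all genes passed an adjusted p of 0.05, and 1 (BIRC3) in Chemo, where 3.88% did. Without CTRL 17 and CTRL 44 the 3 genes were at 0.44, 0.54 and 0.38, with adjusted p = 0.307, 0.311 and 0.321 by edgeR, the highest of 19 settings, of which BIRC3 passed in 9, SOD2 in 11 and TNIP1 in 7.

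In the STAT3 pathway list, on which IL6 and LIF act, 1 of 6 genes tested passed in MC + Chemo against CTRL, where 2.09% of all genes did. It was CEBPB, a transcription factor that itself binds the IL6 and CXCL8 promoters, at 0.75 (SE 0.18, adjusted p = 0.0415, edgeR). CEBPB was at 817, 841, 1092 and 1177 normalized counts in CTRL and at 1250 to 2419 (median 1636) in MC + Chemo. Its log2 fold change was 0.54 (adjusted p = 0.356, edgeR) without CTRL 17 and CTRL 44, the highest adjusted p of 19 settings. CEBPB passed in 9 of these settings. The summed level of the list had an r of 0.88 with the mean of the members over 24 libraries (Spearman's rho 0.89, 0.82 within groups, 0.86 without the 2 farthest libraries), and that of the NF-kB list 0.51 (Spearman's rho 0.25, 0.04 without the 2 farthest). The other secreted cytokines and chemokines gave r of 0.83 (0.64 without the 2 farthest) and the receptors 0.20 (0.09). AP-1 and immediate early genes were at -0.31 (-0.27) and regulators of cytokine mRNA decay at -0.51 (-0.59). None of the 9 AP-1 and immediate early genes and none of the 7 regulators of cytokine mRNA decay passed in any comparison with CTRL by edgeR, and their median log2 fold changes in MC + Chemo were -0.28 and -0.09.

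Of the other secreted cytokines and chemokines 24 of 30 were listed, 21 were tested and none passed an adjusted p of 0.05 by edgeR against CTRL. In MC + Chemo 18 of the 21 were higher, with a median log2 fold change of 1.12 where that of all genes was -0.02, and 16 were higher in each of Chemo (median 0.58), MC (0.40) and Lean (0.39). In MC + Chemo DESeq2 passed IL32 and IL18, both higher, and CXCL9, lower, where 7.16% of all genes passed an adjusted p of 0.05. In Chemo it passed IL32, also higher, where 3.88% did. These counts, medians and DESeq2 results include CTRL 17 and CTRL 44 and are not given without them. PPBP, a further ligand of CXCR2, was at 0 normalized counts in CTRL 17, 96.7 in CTRL 44, 483 in CTRL 31 and 734 in CTRL 70 and at 754 to 3231 (median 1084) in MC + Chemo. The summed level of the 24 was 1898 to 5847 in CTRL, with CTRL 44 and CTRL 17 lowest, 6335 to 8701 in Chemo, 4146 to 6409 in MC, 6586 to 11843 in MC + Chemo and 4158 to 6294 in Lean.

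In the MDA-MB-231 marker list, 1 of 10 genes passed in MC + Chemo against CTRL by edgeR, where 2.09% of all genes did. It was VIM, lower by 1.78 on the log2 scale (SE 0.46, adjusted p = 0.0481, edgeR). VIM was at 0.03 (adjusted p = 0.984, edgeR) without CTRL 17 and CTRL 44, and it passed in 6 of 19 settings. DESeq2 passed VIM, lower, and KRT8 and KRT18, higher, in MC + Chemo, where 7.16% of all genes passed. In Chemo it passed VIM, LGALS1 and MSN, all lower, where 3.88% did. VIM was at 4402 to 9267 in Chemo and 6272 to 16147 in MC + Chemo. The summed human leukocyte markers were at 325 to 533 in CTRL, 310 to 769 in Chemo, 122 to 438 in MC, 250 to 436 in MC + Chemo and 287 to 490 in Lean. The murine neutrophil list (12 of 14 genes listed, Ly6g and Cd177 not) was at 1017 to 2857 normalized counts in CTRL, 1218 to 9227 in Chemo, 1429 to 2785 in MC, 697 to 7885 in MC + Chemo and 2031 to 3190 in Lean. MC + Chemo 52, the highest tumor for CXCL1 and CXCL8, had the lowest sum of the 24 for this list. It was not the lowest for every gene of the list. S100a8 was at 293 there, against 64.3 in CTRL 17 and 277 in CTRL 44. S100a9 was at 263 there, against 75.9 in CTRL 17 and 377 in CTRL 44. Over 24 libraries the r of the list with the mean of the members was 0.31 (Spearman's rho 0.43, 0.15 within groups, 0.62 without the 2 farthest libraries). Murine keratinocyte genes (3 of 5 listed) were at 309 to 725 in CTRL and 545 to 975 in MC + Chemo. They were at 321 to 946 in Chemo, 315 to 634 in MC and 317 to 649 in Lean. Their r with the mean of the members was 0.72 (Spearman's rho 0.73, 0.67 without the 2 farthest). Murine adipocyte genes (6 of 6) were at 336 to 5282 in CTRL and 796 to 66457 in MC + Chemo. They were at 737 to 4844 in Chemo, 1390 to 61669 in MC and 849 to 10418 in Lean. Skeletal muscle genes (7 of 7) were at 73.5 to 118 in CTRL and 72.0 to 54221 in MC + Chemo. They were at 72.4 to 2100 in Chemo, 67.3 to 33233 in MC and 89.8 to 584 in Lean. The part of these host tissues in the levels of the 10 human genes was not tested.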

How the data were processed

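RNA of whole tumor pieces was made into QuantSeq 3′ libraries by the authors, aligned with the BlueBee software and counted per gene. The deposited counts are whole reads per gene, and the deposited normalized signal is the same count divided by a DESeq2 size factor over all 24 libraries. The submitters' processing notes name DESeq2 1.22.2 and GRCm38. The human build and the handling of reads that match both genomes are not given in the sources used here. Some libraries (MC 41, MC 42 and Lean 3) were made from RNA that passed a further cleanup column. MC + Chemo 5 is labelled MC in 1 field and MC + Chemo in its title, and was taken as MC + Chemo.

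The counts were tested with edgeR 4.0.16 in R 4.3.3 by its quasi-likelihood F test, with TMM scaling, filterByExpr and Benjamini-Hochberg adjustment over all genes tested, on the 20 libraries of the high-fat diet, or on all 24 for Lean. A call needed an adjusted p below 0.05, a mean above 30 normalized counts and a change above 1.5-fold. Each SE of an edgeR estimate was worked back from the test, as the absolute log2 fold change divided by the square root of F. DESeq2 1.42.0 was the alternative. The comparisons with CTRL share its 4 libraries, so they are not independent of each other. Correlations used log2(normalized count + 1) and carry no p. Each list of genes was written from general knowledge, and the genes named are all members, the list genes past an adjusted p of 0.05 (at most 4 per list and comparison) and the 5 genes most like the members. PPBP, LIFR, IL1R1, KRT18, IL32, IL18, CXCL9 and single genes of other lists were named after their values were seen. The members and lists were chosen with earlier results of these data known. The edgeR and DESeq2 steps were tested on simulated data. No sequences or coordinates are given, and totals of 7796231 to 17621273 human reads set the counting precision.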

Additional observations from a re-analysis of the deposited data

Results flagged for a closer look

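Of 50 sets of values, each a member in a group, 1 held a library far from the rest, and chance alone gives about 1 in 20. CXCL2 was at 192 normalized counts (317 reads) in MC 42, where the other 4 MC tumors lay between 47.8 and 86.6. MC 42 is the library with the most human reads (17621273) and its RNA had the extra cleanup. Without it the log2 fold change of CXCL2 in MC against CTRL was -0.44.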

How the results depend on the processing

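Leaving out CTRL 17 and CTRL 44 together was chosen after seeing the data. It turned the direction of these log2 fold changes: in Chemo against CTRL, CXCL1 -0.28, CXCL2 -0.0266, IL1B -0.59 and CCL20 -0.36; in MC, CXCL1 -0.52, CXCL3 -0.15, CXCL8 -0.10, IL6 -0.14, IL1B -0.55 and CCL20 -0.42; in MC + Chemo, IL1A -0.23, IL1B -0.16 and VIM 0.0311; and in Lean, CXCL2 -0.0638, CXCL3 -0.22, CXCL8 -0.30, IL6 -0.13, IL1A -0.80 and IL1B -0.29. The estimate of CXCL2 in MC, -0.01 as reported, was 0.00112 with DESeq2 size factors in edgeR, 0.00150 with no filter and 0.0321 with MC + Chemo 5 placed in MC. Without the 3 libraries with RNA cleanup, IL6 in MC was -0.99, CCL20 in MC -0.0545, IL1A in MC 0.00761 and LIF in Lean 0.0446. With DESeq2, 1 member (CXCL8) was called in MC + Chemo against CTRL. Of all genes DESeq2 called 481 in Chemo, 12 in MC, 793 in MC + Chemo, 1 in Lean, 9 in MC + Chemo against Chemo, 278 for chemotherapy averaged over diets, 40 for MC averaged over chemotherapy and 1 for the interaction. For MC + Chemo against CTRL, edgeR called 263 genes as reported, 111 without the 3 cleanup libraries, 508 on all 24 libraries, 0 with the 2 groups alone and 0 without CTRL 17 and CTRL 44, which for MC averaged over chemotherapy left 1 gene called.

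When 1 library was left out at a time, members called in MC + Chemo against CTRL ranged from 0 to 1 (CXCL8 without CTRL 70, adjusted p = 0.0318 by edgeR). All genes called there ranged from 0 (without MC + Chemo 47 or 52, and likewise without CTRL 17 or 44) to 1162 (without CTRL 31), with 880 without CTRL 70 and 68 to 105 without MC + Chemo 5, 43 or 50. They ranged from 0 to 1174 in Chemo (1174 without CTRL 31, 615 without CTRL 70), 0 to 1 in MC, 0 to 1 in Lean and 0 to 429 for chemotherapy averaged over diets (429 without CTRL 31, 295 without CTRL 70). No member changed sign in MC + Chemo. In Chemo the ranges that crossed 0 were -0.20 to 0.30 for CXCL2, -0.53 to 0.52 for IL1A, -0.15 to 0.60 for IL1B, -0.19 to 0.79 for LIF and -0.50 to 0.94 for CCL20. In MC they were -0.0601 to 0.88 for CXCL1, -0.44 to 0.25 for CXCL2, -0.44 to 0.44 for IL6, -0.47 to 0.57 for IL1A, -0.11 to 0.63 for IL1B, -0.88 to 0.20 for LIF and -0.22 to 0.88 for CCL20. In Lean they were -0.44 to 0.50 for CXCL1, -0.25 to 0.26 for CXCL2, -0.0948 to 0.46 for IL6, -0.34 to 0.71 for IL1A and -0.61 to 0.20 for LIF. The cause of these changes was not tested. No paired analysis was possible because mouse numbers are not shared between groups. Counts of 0 to 41 reads limit CSF2 and CCL20 most, and groups of 4 to 6 limit every comparison.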
